A study of Homo sapiens with 4 samples.

Results

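Collagen genes were taken as the protein-coding rows of the deposited count table whose symbol has the form COL, a number, A and a number. This gave 44 genes among 19951 protein-coding genes and 58735 genes in all. They were read in 3 classes, with 11 fibrillar genes, 6 basement membrane genes (the chains of type IV collagen) and 27 others. The others held 10 FACIT genes, 7 of the beaded filament group and its relatives, 4 transmembrane genes, 4 network and anchoring genes and 2 multiplexin genes.

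RNA was sequenced from Hey-A8, a human ovarian cancer cell line grown in culture, in 2 shSPTLC2 libraries and 2 shCON libraries. Per the titles and genotypes, shSPTLC2 cells stably carried a short hairpin against SPTLC2, a catalytic subunit of serine palmitoyltransferase, the first enzyme of sphingolipid synthesis, and shCON cells a negative control hairpin. The treatment protocol differs from this: it describes ZDHHC15 hairpin and scrambled hairpin plasmids given by transient transfection, with cells collected at 36 h. The groups below follow the titles. All libraries come from this 1 cell line, the labels name neither the hairpin's sequence nor the number of clones, and nothing says that replicates were separate cultures, so p-values measure only the spread between these libraries.

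Collagens are secreted or membrane proteins in which chains of a glycine-rich repeat wind into a helix of several chains, and they are the main structural proteins of the extracellular matrix. Fibrillar collagens pack into the fibrils of connective tissue. Type IV collagen forms the sheet-like network of basement membranes, and the remaining types coat fibrils, anchor epithelium, form beaded filaments or span the plasma membrane. In ovarian tumours fibrillar collagen is largely a product of stromal fibroblasts, which were not part of this culture.

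SPTLC2 had 39.9 and 43.1 CPM (counts scaled to a common library size by TMM) in shSPTLC2 replicates 1 and 2, against 58.7 and 60.7 CPM in shCON replicates 1 and 2. Its log2 fold change, shSPTLC2 over shCON throughout, was -0.52 ± 0.12 (SE; edgeR adjusted p = 0.0063). Leaving out shSPTLC2 replicate 1 gave an adjusted p of 0.13, and leaving out replicate 2 of that group gave 0.052. ZDHHC15 had 0 counts in all 4 libraries. Total counts ran from 14464784 to 15084966 per library, so that 3 counts, the limit a count of 0 allows, equal 0.195 to 0.206 CPM. Counts of mitochondrial genes made up 10.1% and 8.56% in shSPTLC2, against 5.46% and 6.39% in shCON. Of 7 fibroblast markers, DCN and LUM had 0 counts in every library and 2 were tested, with FAP lower in shSPTLC2, and their summed level was 10.5 and 11.1 CPM in shSPTLC2, against 17.2 and 15.7 CPM in shCON. The 6 leukocyte markers summed to 0.272 to 0.391 CPM in shSPTLC2 and 0.275 to 0.405 CPM in shCON, with CD3E and MS4A1 at 0 and no member tested. Of 5 endothelial markers 4 were tested, with CDH5 higher and PECAM1 lower. Both shSPTLC2 libraries were below both shCON libraries in 3 of the 4, and the median log2 fold change was -0.80. Their sum, mostly CDH5, was 110.5 and 132.8 CPM in shSPTLC2, against 61.6 and 60.0 CPM in shCON. Among 9 epithelial carcinoma markers CDH1 had 0 counts throughout, MUC16 had at most 1 count, and PAX8 was higher, while the 6 mesenchymal markers, VIM among them, did not pass. The epithelial list summed to 2877 and 2837 CPM in shSPTLC2, against 2611 and 2519 CPM in shCON, and the mesenchymal list to 5862 and 6224 CPM in shSPTLC2, against 6621 and 6268 CPM in shCON. The part of these marker differences in the collagen results was not tested.

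The promoter sequences below are shown for COL4A1 and COL4A2, which start back to back, for COL4A5, the basement membrane gene that was called, and for COL5A1, COL18A1 and COL13A1, which were called in all 13 alternative analyses described below. They are the RefSeq bases (GRCh38.p14) before a transcription start, read on the plus strand, 5′ to 3′. Capitals mark the GC box GGGCGG, the CCAAT box and the TATA box TATAAA, each on either strand. The first is the whole stretch between the divergent starts of COL4A1 and COL4A2, at chr13:110307158-110307283. The next is the 250 bases before the COL4A5 start at chrX:108439588-108439837, and then come COL5A1 at chr9:134641553-134641802, COL18A1 at chr21:45404915-45405164 and COL13A1 at chr10:69801656-69801905.
Between COL4A1 and COL4A2: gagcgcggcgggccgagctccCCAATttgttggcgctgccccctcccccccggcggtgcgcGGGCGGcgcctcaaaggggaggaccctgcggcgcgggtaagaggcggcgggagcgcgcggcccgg
COL4A5: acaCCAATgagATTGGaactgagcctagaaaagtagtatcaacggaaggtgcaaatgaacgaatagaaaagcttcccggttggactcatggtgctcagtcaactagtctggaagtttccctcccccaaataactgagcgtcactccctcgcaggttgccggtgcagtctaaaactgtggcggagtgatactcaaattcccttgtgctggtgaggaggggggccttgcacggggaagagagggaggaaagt
COL5A1: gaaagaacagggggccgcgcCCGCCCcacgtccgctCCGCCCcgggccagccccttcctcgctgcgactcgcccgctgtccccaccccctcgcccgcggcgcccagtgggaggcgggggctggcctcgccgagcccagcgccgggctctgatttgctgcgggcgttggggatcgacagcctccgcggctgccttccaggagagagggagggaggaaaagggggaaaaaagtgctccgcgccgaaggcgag
COL18A1: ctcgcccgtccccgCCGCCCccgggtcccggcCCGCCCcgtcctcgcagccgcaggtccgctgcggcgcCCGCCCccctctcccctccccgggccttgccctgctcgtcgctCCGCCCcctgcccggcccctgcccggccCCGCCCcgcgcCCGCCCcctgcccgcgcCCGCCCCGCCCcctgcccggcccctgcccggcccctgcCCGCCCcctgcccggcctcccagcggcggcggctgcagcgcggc
COL13A1: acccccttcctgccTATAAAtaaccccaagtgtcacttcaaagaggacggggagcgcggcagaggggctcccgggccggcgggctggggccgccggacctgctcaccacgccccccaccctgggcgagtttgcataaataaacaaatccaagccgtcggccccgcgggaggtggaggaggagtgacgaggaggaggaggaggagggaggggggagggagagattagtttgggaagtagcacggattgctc

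The stretch between COL4A1 and COL4A2 held 1 CCAAT box and 1 GC box in 126 bases. The printed COL18A1 window was 88.4% G and C and held 9 GC boxes, overlapping matches included, and the COL5A1 window held 2. Another COL18A1 window, at chr21:45455272-45455521, was 66.4% G and C, with 1 GC box and 1 TATA box. Which of these starts the cells used was not tested. COL13A1, which was lower in shSPTLC2, had a TATA box and no GC box in its window, and COL4A5 had 2 CCAAT boxes and no GC box. Among windows not printed, that of COL7A1, which was higher, had 3 GC boxes and 1 TATA box. The window of COL12A1, which was lower, had 1 GC box and no TATA box. RefSeq promoter windows matched 32 of the 44 genes, with 44 windows in all, and COL1A1, COL5A2 and COL6A1 are among the genes without one. A GC box stood on either strand in 24 of the 44 collagen windows (54.5%), against 42.6% of 35116 windows of all genes. CCAAT stood in 27.3% of collagen windows, against 32.0% of all, and TATAAA in 18.2%, against 10.7%. The AP-1 letters TGACTCA were in 0 collagen windows and 4.20% of all, and the SMAD palindrome GTCTAGAC was in 0 collagen windows and 0.182% of all. These matches describe letters in a window of 250 bases and show neither binding nor its absence.

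Collagen expression in these cells came mostly from 4 genes of types IV and VI. COL4A1, COL4A2, COL6A1 and COL6A2 together took 72.9% and 74.3% of all collagen counts in shSPTLC2, against 78.1% and 74.9% in shCON. At least 1 count was seen for 39 of the 44 genes. The 5 genes with 0 counts in every library were COL5A3, COL6A5, COL14A1, COL22A1 and COL28A1. The filter on low counts left 22 genes to be tested, and the other 22 summed to 32 and 22 counts in shSPTLC2, against 43 and 42 counts in shCON. The highest untested gene, COL8A1, had 6 and 10 counts in shSPTLC2, against 9 and 9 counts in shCON. Chains that dominate connective tissue were close to absent, with 1 and 0 counts of COL1A2 in shSPTLC2, against 1 and 2 in shCON, and 0 and 0 counts of COL3A1 in shSPTLC2, against 1 and 0 in shCON. COL2A1, the cartilage chain, had 0 and 0 counts in shSPTLC2, against 0 and 1 in shCON.

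Of the 22 tested genes, 5 rose in shSPTLC2 cells (COL1A1, COL5A1, COL4A5, COL18A1 and COL7A1), 2 fell (COL13A1 and COL12A1) and 15 did not pass edgeR's test at an adjusted p of 0.05. That is 22.7% higher and 9.09% lower, where 10.4% of all 15313 tested genes were called higher and 9.00% lower. In either direction 31.8% of the tested collagen genes were called, against 19.4% of all tested genes. The groups did not overlap in CPM for 18 of the 22, with shSPTLC2 above in 12 and below in 6, and 61.5% of all tested genes had no overlap. The median log2 fold change of the tested collagens was 0.20, against 0.005 for all tested genes. Without shSPTLC2 replicate 1 the collagen calls were 2 higher and 1 lower, and without shSPTLC2 replicate 2 they were 3 higher and 2 lower. In bulk RNA a change in the number of cells that express a gene and a change in RNA per cell cannot be told apart.

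**Figure D1:**
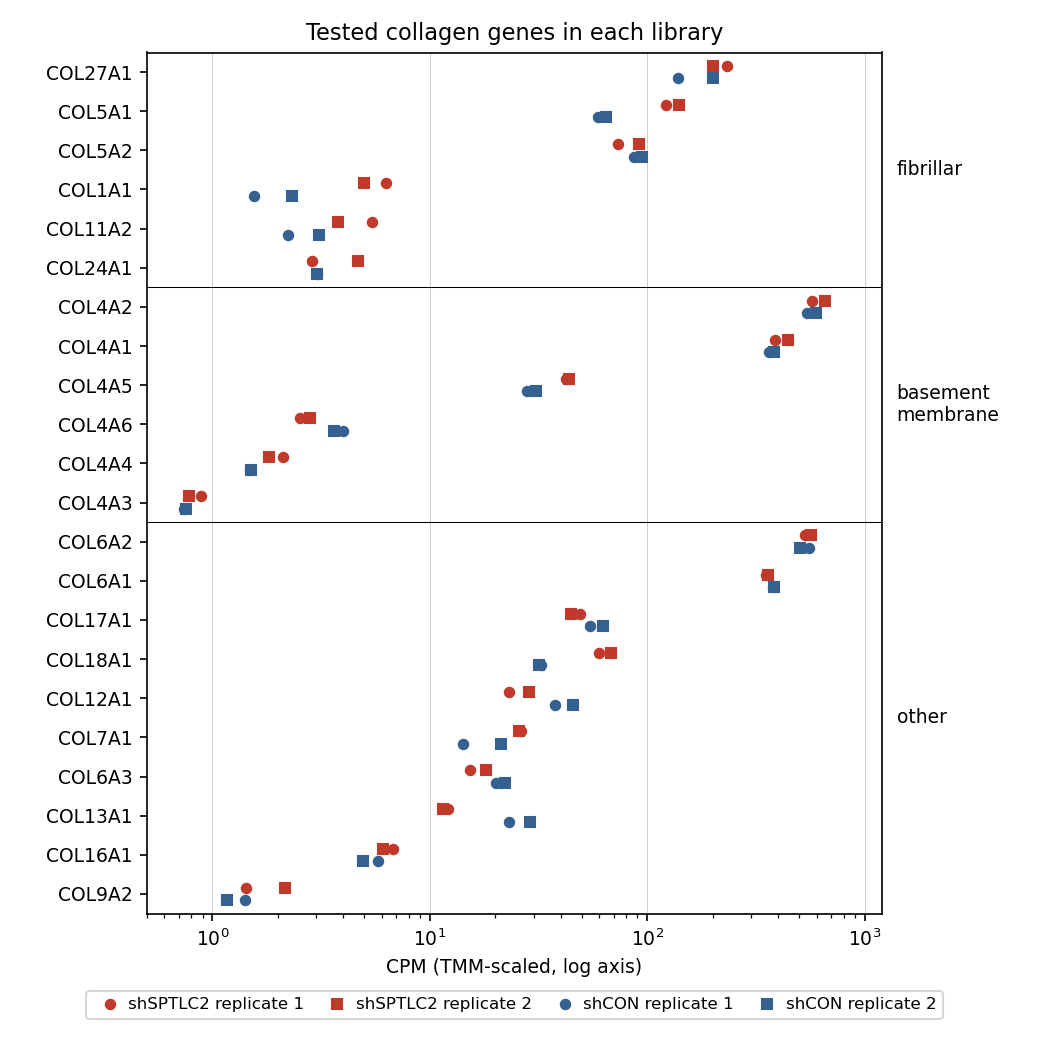
TMM-scaled CPM of the 22 tested collagen genes on a log axis, by class, with 1 point per library (shSPTLC2 in red, drawn above shCON in blue). COL5A1 sat at 122 and 139.8 CPM in shSPTLC2, against 59.5 and 64.6 CPM in shCON, while COL5A2 below it had overlapping groups.

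Among the fibrillar collagens, COL5A1, a chain of type V collagen, which helps to set the width of collagen fibrils, rose 2.11-fold in shSPTLC2 cells, while its partner chain COL5A2 did not pass the test. COL1A1, the major chain of type I collagen, rose 2.88-fold from a low level. Of 11 fibrillar genes 6 were tested, 2 rose and 4 did not pass, with a median log2 fold change of 0.57. That is 33.3% called, against 19.4% of all tested genes. Without shSPTLC2 replicate 1 the count was 1 higher (COL5A1), and without shCON replicate 2 it was 4, with COL27A1 and COL11A2 added.

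COL5A1 (ENSG00000130635, hg38 chromosome 9, 134641774 to 134844843, 66 exons in its transcript with the longest coding sequence) had 122 and 139.8 CPM in shSPTLC2 replicates 1 and 2, against 59.5 and 64.6 CPM in shCON replicates 1 and 2. Both shSPTLC2 libraries stood well above both shCON libraries. The log2 fold change was 1.08 ± 0.11 (SE; edgeR adjusted p = 2.9e-05), and the gene was called in all 13 alternative analyses. COL5A2 (ENSG00000204262, chromosome 2, 189031896 to 189225312), whose chain joins COL5A1 chains in the common form of type V, had 73.2 and 91.3 CPM in shSPTLC2, against 86.5 and 94.2 CPM in shCON. Its groups overlapped, and the log2 fold change was -0.13 ± 0.12 (edgeR adjusted p = 0.47). The third chain, COL5A3, had no counts.

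COL1A1 (ENSG00000108821, chromosome 17, 50183289 to 50201632, 51 exons) had 92 and 76 counts in shSPTLC2, against 23 and 34 counts in shCON. In CPM this was 6.26 and 4.95 in shSPTLC2, against 1.55 and 2.33 in shCON. The groups were separate at a low level, and the log2 fold change was 1.52 ± 0.30 (edgeR adjusted p = 0.0029), with adjusted p = 0.069 without shSPTLC2 replicate 1. COL1A2, which supplies the other chain of ordinary type I collagen, had at most 2 counts in any library.

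COL27A1, a fibrillar gene known from cartilage, was the fibrillar gene with the highest CPM. It had 232 and 199.8 CPM in shSPTLC2, against 139 and 199.5 CPM in shCON. shSPTLC2 replicate 2 and shCON replicate 2 were almost level, and shCON replicate 1 stood apart below them. Its log2 fold change of 0.35 ± 0.16 did not pass (edgeR adjusted p = 0.14), but without shCON replicate 2 it was 0.63 with adjusted p = 1.0e-06, and with no filter on low counts adjusted p was 0.026. COL11A2, a chain of type XI collagen that nucleates thin fibrils, had 5.44 and 3.78 CPM in shSPTLC2, against 2.23 and 3.09 CPM in shCON. The groups did not overlap, and its log2 fold change of 0.79 ± 0.30 did not pass (edgeR adjusted p = 0.077), while without shCON replicate 2 adjusted p was 0.025. COL24A1 had 2.86 and 4.69 CPM in shSPTLC2, against 3.03 and 3.02 CPM in shCON, with overlapping groups (edgeR adjusted p = 0.49).

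All 6 basement membrane genes, those of type IV collagen, were tested, and COL4A5, which encodes the α5 chain, rose in shSPTLC2 cells by 1.47-fold. The abundant COL4A1 and COL4A2, whose products form the ordinary type IV molecule of nearly all basement membranes, and the remaining 3 genes did not pass. The median log2 fold change of the 6 genes was 0.15, and 16.7% of them were called, against 19.4% of all tested genes.

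COL4A5 (ENSG00000188153, chromosome X, 108439844 to 108697545, 53 exons) had 42.4 and 43.5 CPM in shSPTLC2, against 27.9 and 30.7 CPM in shCON. The groups were separate, and the libraries within each were close. The log2 fold change was 0.55 ± 0.12 (SE; edgeR adjusted p = 0.0065). Leaving out either shSPTLC2 library, which leaves 1 in the group, raised the adjusted p to 0.078 in both cases and ended the call. COL4A6 encodes the α6 chain, which assembles with α5 in some basement membranes. It had 2.52 and 2.80 CPM in shSPTLC2, against 3.98 and 3.64 CPM in shCON, so both shSPTLC2 libraries were lower, with a log2 fold change of -0.52 ± 0.28 that did not pass (edgeR adjusted p = 0.22).

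COL4A1 had 387 and 444 CPM in shSPTLC2, against 365 and 384 CPM in shCON. COL4A2 had 573 and 657 CPM in shSPTLC2, against 542 and 599 CPM in shCON. The log2 fold changes were 0.15 ± 0.11 for COL4A1 and 0.11 ± 0.11 for COL4A2, and neither passed (edgeR adjusted p = 0.37 and 0.54). The COL4A1 groups were separate by a small margin, and the COL4A2 groups overlapped. COL4A3 and COL4A4, the chains that join α5 in the filtering membrane of the kidney, were near the lower limit of the test. COL4A4 had 31 and 28 counts in shSPTLC2, against 22 and 22 counts in shCON, and COL4A3 had 13 and 12 counts in shSPTLC2, against 11 and 11 counts in shCON (edgeR adjusted p = 0.50 and 0.86). An antisense gene shares 120 exon bases with COL4A3 and had 12 and 11 counts in shSPTLC2, against 19 and 21 in shCON, and since the strand setting of the counting is not given, reads of the 2 genes cannot be told apart.

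**Figure D2:**
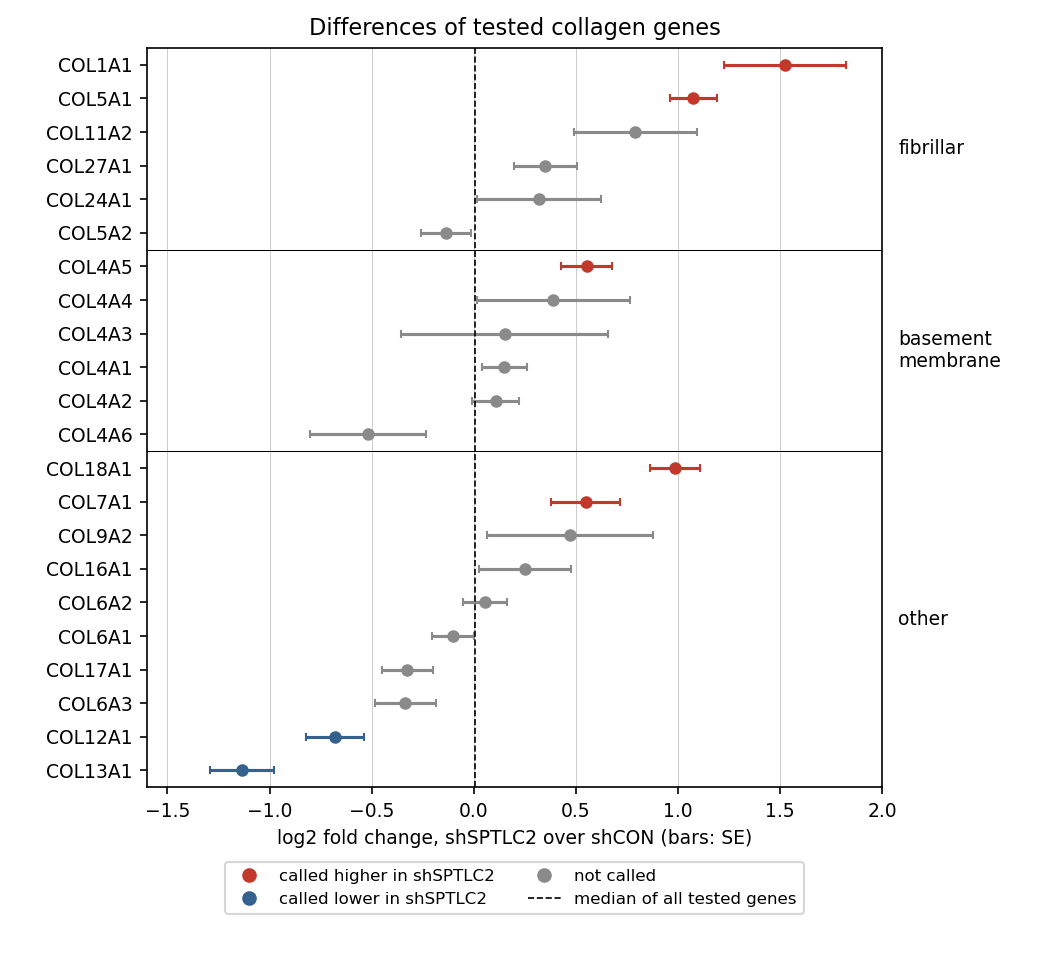
Log2 fold change, shSPTLC2 over shCON, of the 22 tested collagen genes by class, with bars for the SE from the edgeR fit and a dashed line at the median of all tested genes. The 5 called higher lie between 0.55 and 1.52, the 2 called lower at -0.68 and -1.13, and the bars widen for low-count genes such as COL4A3.

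The genes of chains that assemble together were compared as the ratio of their counts within each library, which does not depend on library scaling. COL5A1 had 1.66 and 1.53 counts for each COL5A2 count in shSPTLC2, against 0.687 and 0.685 in shCON. The ratio of COL4A5 to COL4A6 was 16.8 and 15.5 in shSPTLC2, against 7.00 and 8.43 in shCON. In both pairs the shSPTLC2 libraries were clearly above the shCON libraries. The second pair rests on few COL4A6 counts, 37 and 43 in shSPTLC2, against 59 and 53 in shCON. COL4A1 to COL4A2 gave 0.677 and 0.676 in shSPTLC2, against 0.672 and 0.642 in shCON, and COL6A1 to COL6A2 gave 0.657 and 0.636 in shSPTLC2, against 0.687 and 0.761 in shCON. COL6A3 to COL6A2 gave 0.0287 and 0.0322 in shSPTLC2, against 0.0363 and 0.0441 in shCON. COL4A3 to COL4A4, both at low counts, gave 0.419 and 0.429 in shSPTLC2, against 0.5 and 0.5 in shCON. In the COL6A1, COL6A3 and COL4A3 ratios both shSPTLC2 libraries were below both shCON libraries. These ratios carry no test of their own, as an exact two-sided permutation test of 2 against 2 libraries cannot give a p below 0.333. The COL4A pairs in these ratios are arranged head to head, with RefSeq starts 127 bases apart for COL4A1 and COL4A2, whose intervening sequence is printed above. Those of COL4A5 and COL4A6 lie 380 bases apart. COL4A3 and COL4A4 start 419 bases apart.

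**Figure D3:**
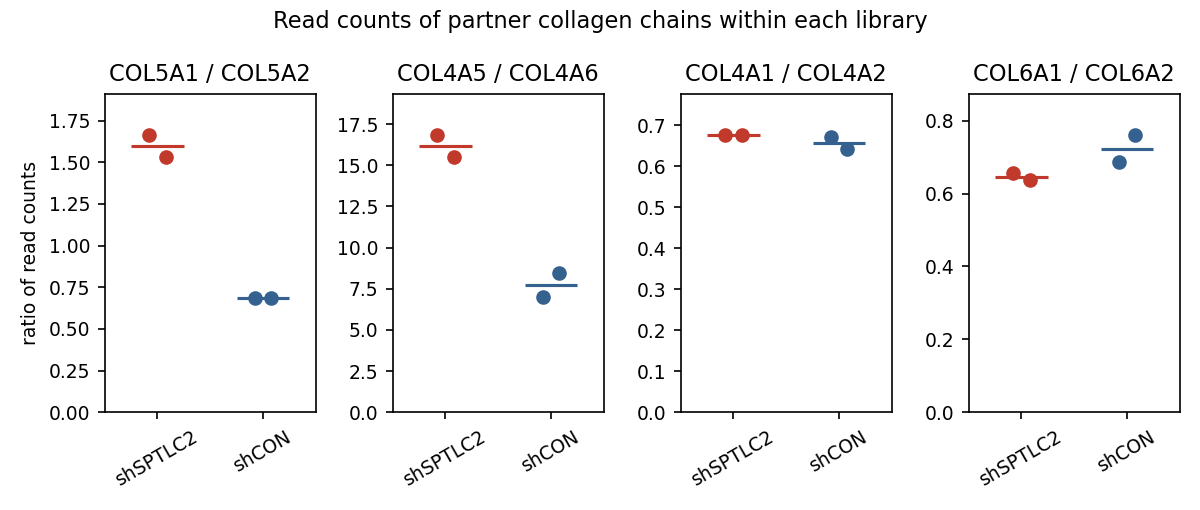
Ratio of read counts of 2 partner collagen chains in each library (points) and the group mean (line), shSPTLC2 left of shCON, each axis starting at 0. The COL5A1 to COL5A2 ratio was 1.66 and 1.53 in shSPTLC2, against 0.687 and 0.685 in shCON, while the COL4A1 to COL4A2 ratio lay between 0.642 and 0.677 in all libraries.

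Of the 27 other collagen genes 10 were tested: COL18A1 and COL7A1 rose in shSPTLC2 cells, COL13A1 and COL12A1 fell and 6 did not pass. Their median log2 fold change was -0.02, and 40% were called, against 19.4% of all tested genes. COL18A1, a proteoglycan of basement membranes and the source of endostatin, rose to 1.98 times its shCON level, and the transmembrane COL13A1 fell to 0.456 times its shCON level.

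COL18A1 (ENSG00000182871, chromosome 21, 45405137 to 45513720, 41 exons) had 59.8 and 67.8 CPM in shSPTLC2, against 32.4 and 31.9 CPM in shCON. The groups were far apart, with a log2 fold change of 0.99 ± 0.12 (SE; edgeR adjusted p = 9.9e-05), and the gene was called in all 13 alternatives. It shares 1401 exon bases with SLC19A1, the reduced folate carrier gene on the opposite strand. SLC19A1 had 1218 and 1172 counts in shSPTLC2, against 1248 and 996 counts in shCON, and its log2 fold change was 0.06 ± 0.12 (edgeR adjusted p = 0.76). Without a known strand setting, reads of COL18A1 and SLC19A1 in the shared exons cannot be told apart. The other multiplexin, COL15A1, had 1 and 1 counts in shSPTLC2, against 5 and 4 counts in shCON, and was not tested.

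COL13A1 (ENSG00000197467, chromosome 10, 69801867 to 69964275, 41 exons), a transmembrane collagen found at adhesion sites and at the neuromuscular junction, had 12.1 and 11.5 CPM in shSPTLC2, against 23.0 and 28.9 CPM in shCON. Both shSPTLC2 libraries were below both shCON libraries. The log2 fold change was -1.13 ± 0.16 (SE; edgeR adjusted p = 0.00025), called in all 13 alternatives. COL17A1, a transmembrane collagen of the hemidesmosome that ties epithelial cells to the basement membrane, had 48.9 and 44.6 CPM in shSPTLC2, against 54.4 and 62.7 CPM in shCON. Its groups did not overlap, but the log2 fold change of -0.32 ± 0.12 did not pass (edgeR adjusted p = 0.076). It passed in 3 of the 13 alternatives, with adjusted p = 0.032 under the GC-content correction, 0.026 under that correction with the replicate block and 0.0072 without shCON replicate 1.

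COL12A1 (ENSG00000111799, chromosome 6, 75084326 to 75206051, 66 exons), a FACIT chain that links the surface of fibrils to other matrix, had 23.1 and 28.7 CPM in shSPTLC2, against 37.6 and 45.4 CPM in shCON. The groups were separate, and the log2 fold change was -0.68 ± 0.14 (SE; edgeR adjusted p = 0.0044), with adjusted p = 0.13 without shSPTLC2 replicate 1. The other 2 tested FACIT genes did not pass: COL16A1 had 6.73 and 6.06 CPM in shSPTLC2, against 5.80 and 4.94 CPM in shCON, and COL9A2 had 21 and 33 counts in shSPTLC2, against 21 and 17 counts in shCON (edgeR adjusted p = 0.47 and 0.45).

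COL7A1 (ENSG00000114270, chromosome 3, 48564073 to 48595267, 118 exons), which forms the anchoring fibrils below epithelial basement membranes, had 26.1 and 25.6 CPM in shSPTLC2, against 14.2 and 21.1 CPM in shCON. shCON replicate 1 was the lowest, and shCON replicate 2 came near the shSPTLC2 level. Its log2 fold change was 0.55 ± 0.17 (SE; edgeR adjusted p = 0.032), and 7 of 13 alternatives kept the call. Adjusted p was 0.065 with DESeq2 and 0.27 after correction for GC content, and 0.22, 0.16 and 0.20 without shSPTLC2 replicate 1, shSPTLC2 replicate 2 and shCON replicate 1, where the log2 fold change was 0.28 in the last case.

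Type VI collagen, the beaded filament of the pericellular matrix, was abundant. None of its 3 tested genes passed edgeR's test or DESeq2's, and 1 of them, COL6A3, had an unadjusted edgeR p under 0.05. COL6A2 had 534 and 564 CPM in shSPTLC2, against 553 and 503 CPM in shCON, with overlapping groups (log2 fold change 0.06 ± 0.11, edgeR adjusted p = 0.76). COL6A1 had 351 and 359 CPM in shSPTLC2, against 379.7 and 383 CPM in shCON, a small separation with log2 fold change -0.10 ± 0.10 (edgeR adjusted p = 0.52), called lower with the GC-content correction (adjusted p = 0.041). COL6A3, the largest chain of type VI, had 15.3 and 18.2 CPM in shSPTLC2, against 20.1 and 22.2 CPM in shCON, and its log2 fold change of -0.34 ± 0.15 did not pass (edgeR adjusted p = 0.13).

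Levels between genes were compared per length, with the deposited FPKM (fragments per kilobase of gene length, scaled to library size). COL6A2 was highest, with a mean of 100.9 ± 4.28 FPKM in shSPTLC2 and 97.8 ± 7.16 FPKM in shCON (SD, n = 2 each here and below). COL6A1 followed with 65.8 ± 1.30 FPKM in shSPTLC2 and 71.1 ± 0.068 FPKM in shCON, and then COL4A2 with 31.6 ± 3.15 FPKM in shSPTLC2 and 29.5 ± 1.89 FPKM in shCON. COL4A1 had 27.9 ± 2.76 FPKM in shSPTLC2 and 25.3 ± 0.789 FPKM in shCON. Within each library its FPKM was below that of COL4A2, at a ratio of 0.886 and 0.884 in shSPTLC2, against 0.880 and 0.840 in shCON. COL27A1 came next with 15.3 ± 1.54 FPKM in shSPTLC2 and 12.0 ± 2.99 FPKM in shCON. In shSPTLC2, COL5A1 had 11.6 ± 1.16 FPKM and COL5A2 10.9 ± 1.73 FPKM, and their ratio within each library was 1.11 and 1.02. In shCON, COL5A1 had 5.53 ± 0.287 FPKM and COL5A2 12.1 ± 0.655 FPKM, with ratios of 0.458 and 0.457. The length used in the deposited values covers all annotated exons of a gene, which is 19293 bases for COL4A2 against 6494 bases in its transcript with the longest coding sequence. Per kilobase of that transcript, COL4A2 had 94.7 CPM in shSPTLC2 and 87.9 CPM in shCON. COL6A1 had 83.7 CPM in shSPTLC2 and 89.9 CPM in shCON, so the order of COL4A2 and COL6A1 depends on the length used. COL4A1 had 62.8 CPM in shSPTLC2 and 56.6 CPM in shCON by that measure, further below COL4A2 than by FPKM. COL5A1 had 15.4 and COL5A2 11.6 CPM in shSPTLC2, against 7.32 and 12.8 CPM in shCON. The size of the differences within both pairs thus also depends on the length.

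The summed level of all collagens was 2529 and 2723 CPM in shSPTLC2, against 2357 and 2493 CPM in shCON. Their means were 2626 ± 137.5 CPM in shSPTLC2 and 2425 ± 96.7 CPM in shCON (SD, n = 2 each), and the log2 ratio of the sums was 0.11. The fibrillar class summed to 441 and 445 CPM in shSPTLC2, against 292 and 367 CPM in shCON, with both shSPTLC2 libraries above. Most of that sum came from COL27A1, COL5A1 and COL5A2. Mean CPM of COL27A1, which was not called, was 215.7 in shSPTLC2 and 169.0 in shCON. For COL5A1 it was 130.8 in shSPTLC2 and 62.0 in shCON, and for COL5A2 82.3 in shSPTLC2 and 90.4 in shCON. The basement membrane class overlapped, at 1008 and 1149.6 CPM in shSPTLC2, against 941 and 1019.9 CPM in shCON. The other collagens also overlapped, at 1079.8 and 1129 CPM in shSPTLC2, against 1124 and 1106 CPM in shCON. As a share of all counts, collagens made up 0.257% (exact 95% binomial interval 0.254 to 0.260) and 0.277% (0.274 to 0.280) in shSPTLC2, against 0.233% (0.231 to 0.235) and 0.242% (0.239 to 0.244) in shCON, where the intervals cover counting error only.

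The collagen calls were also set beside the GC content of the transcripts, because over all coding genes the direction of calls differed with it, though not steadily. Coding genes were split by GC content into 5 bins of equal size. In the highest bin (58.7% to 74.6%), 22.9% of 2509 tested genes were called higher and 4.70% lower, with a median log2 fold change of 0.19. Counted from the lowest bin, bin 1 had 8.09% higher and 6.58% lower, and bin 2 had 6.14% higher and 12.8% lower. Bin 3 had 6.86% higher and 15.3% lower, and bin 4 had 11.0% higher and 11.5% lower. Collagen transcripts are rich in GC, with a median of 59.6% over the 22 tested genes, against 49.1% over tested coding genes. The highest bin held 12 of the 22, among them COL1A1, COL5A1, COL7A1 and COL18A1, 4 of the 5 called higher, and also COL13A1, which was lower. COL4A5, called higher, lay at 50.9% in bin 3, and COL12A1, called lower, at 46.3% in bin 2. After a correction for GC content within the fit, 4 collagens were called higher and 4 lower, with COL7A1 no longer called and COL6A1 and COL17A1 added to the lower ones. The same correction with the replicate block gave 4 higher and 3 lower, without COL6A1 (adjusted p = 0.071). The fit without mitochondrial genes, whose share also differed between the groups, gave 5 higher and 2 lower. Beyond these fits, the part of GC content or of the mitochondrial share in the calls was not tested.

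**Figure D4:**
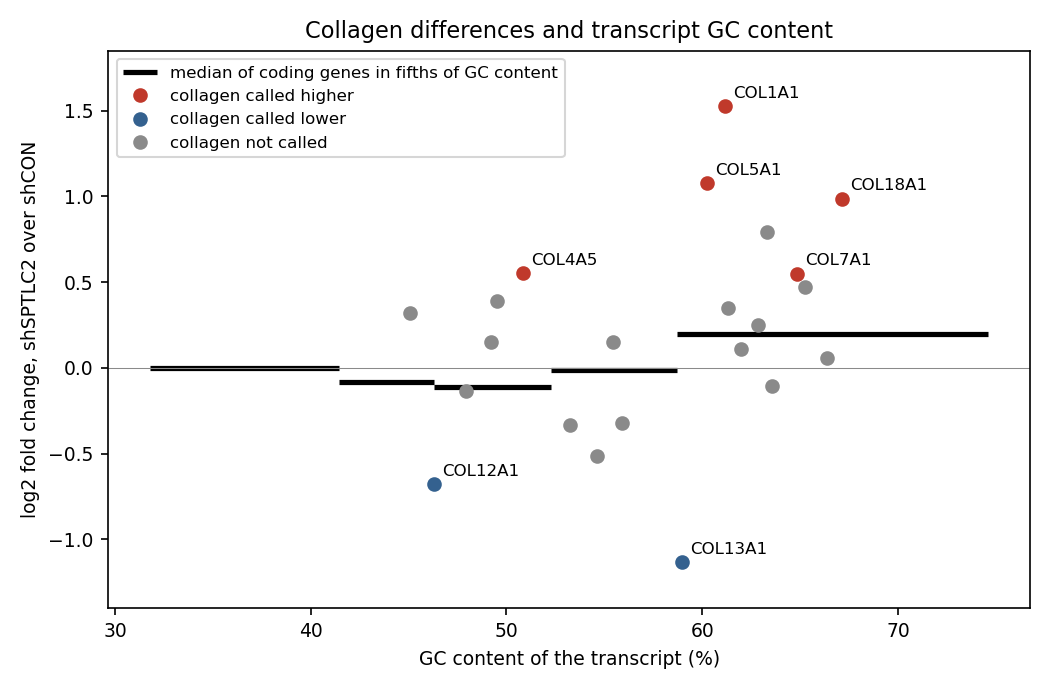
Log2 fold change, shSPTLC2 over shCON, of the 22 tested collagen genes against transcript GC content in percent (points), with black lines at the median of all tested coding genes in each of 5 equal bins of GC content. COL1A1, COL5A1, COL18A1 and COL7A1 lie at the GC-rich end, where that median is 0.19, and COL13A1 lies there too at -1.13.

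Genes that make, cross-link, bind and degrade collagen were read in 8 lists with 115 members, of which 98 were tested, 17 rose and 14 fell (31.6% called, against 19.4% of all tested genes). Without shSPTLC2 replicate 1 these were 5 higher and 3 lower, without shSPTLC2 replicate 2 they were 5 and 8, and without shCON replicate 1 they were 24 and 22. Called in either direction were 69.2% of tested degradation genes, 57.1% of receptors, 42.9% of fibril-associated proteins and 35.7% of hydroxylating and glycosylating enzymes. For trimming and cross-linking the share was 33.3%, for other basement membrane components 21.4%, for TGF-beta signalling 10.5% and for folding and export 8.33%. These shares, and the counts below, describe each list without a test of the list. The lists were chosen with earlier results of these data known, and the part of that choice in the shares was not tested. All fold changes of genes named here come from the same edgeR fit.

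Enzymes that hydroxylate and glycosylate procollagen had 14 of 15 members tested, of which 4 rose and 1 fell, with a median log2 fold change of 0.15. COLGALT1, which adds galactose to hydroxylysine, had 493 and 481 CPM in shSPTLC2, against 385 and 359 CPM in shCON (log2 fold change 0.39 ± 0.11, adjusted p = 0.018). P4HA2, a prolyl 4-hydroxylase subunit, PLOD3, a lysyl hydroxylase, and P3H3, of the prolyl 3-hydroxylase family, were higher by 0.44, 0.40 and 0.34 in log2. PPIB, a cyclophilin that speeds proline isomerisation in procollagen, fell, with 91.3 and 87.5 CPM in shSPTLC2, against 105 and 141 CPM in shCON (log2 fold change -0.46 ± 0.13, adjusted p = 0.022). The abundant PLOD2 and P4HB did not pass, with log2 fold changes of -0.29 and -0.09. All 5 calls were lost without shSPTLC2 replicate 1 (adjusted p 0.084 to 0.31) and also without shSPTLC2 replicate 2 (0.11 to 0.29), and those of PPIB, PLOD3 and P3H3 without shCON replicate 2 (0.11 to 0.15). With the GC-content correction 1 member was called higher, P4HA2, as COLGALT1, PLOD3 and P3H3 had log2 fold changes of 0.30, 0.22 and 0.077 (adjusted p = 0.071, 0.21 and 0.67), and 2 were called lower, PPIB and PLOD2 (-0.35, adjusted p = 0.038). DESeq2 did not call P4HA2, PLOD3 or P3H3 (adjusted p = 0.058, 0.052 and 0.093), and P3H3 was also lost with RLE size factors (0.052) and with no filter (0.066).

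Among 12 tested genes of folding and export (13 members, median 0.04), FKBP10, a collagen-binding isomerase of the endoplasmic reticulum, rose by 0.40 ± 0.10 in log2 (adjusted p = 0.015), and 11 did not pass. Leaving out shSPTLC2 replicate 1 or 2 ended its call (adjusted p = 0.089 and 0.22), as did the GC-content correction, where its log2 fold change was 0.28 (adjusted p = 0.081, and 0.11 with the block) and 1 other gene of the list was called lower. SPARC, a collagen-binding matricellular protein, and PDIA3, a disulfide isomerase, had log2 fold changes of 0.26 and -0.22 and did not pass.

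Trimming and cross-linking of procollagen had 12 of 14 members tested, 3 higher and 1 lower (median 0.29). The procollagen C-proteinase BMP1 had 50.2 and 48.1 CPM in shSPTLC2, against 28.5 and 33.2 CPM in shCON (log2 fold change 0.67 ± 0.13, adjusted p = 0.0022). Its enhancer PCOLCE and the procollagen N-proteinase ADAMTS2 were higher by 1.26 ± 0.30 and 0.99 ± 0.23 in log2 (adjusted p = 0.0088 and 0.0087) at under 14 CPM. The cross-linking oxidase LOXL1 had 23.6 and 22.7 CPM in shSPTLC2, against 50.8 and 47.4 CPM in shCON, and its fall of log2 -1.08 ± 0.13 (adjusted p = 6.0e-05) was called in all 13 alternatives. The abundant PXDN, which cross-links type IV collagen, and LOXL2 did not pass, with log2 fold changes of -0.17 and 0.24. Leaving out shSPTLC2 replicate 1 ended the calls of BMP1 and PCOLCE (adjusted p = 0.058 and 0.080), and leaving out shSPTLC2 replicate 2 those of ADAMTS2 and PCOLCE (0.19 and 0.068).

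Of 10 collagen receptor genes 7 were tested, 2 rose and 2 fell (median 0.15). The receptor kinase DDR1, which binds type IV and fibrillar collagens, had 20.5 and 22.5 CPM in shSPTLC2, against 12.7 and 12.0 CPM in shCON (log2 fold change 0.80 ± 0.15, adjusted p = 0.0022), called in all 13 alternatives. Its relative DDR2, which prefers fibrillar collagens, went the other way, with 149 and 145 CPM in shSPTLC2, against 208 and 207 CPM in shCON (log2 fold change -0.50 ± 0.10, adjusted p = 0.0035). ITGA10 rose by 1.18 ± 0.32 in log2 at under 5 CPM, and ITGB1, the β chain shared by collagen-binding integrins, fell by 0.43 (SE 0.12), while the abundant ITGA2 did not pass (-0.08). The calls of DDR2, ITGA10 and ITGB1 were lost without shSPTLC2 replicate 1 (adjusted p 0.079 to 0.35) and without shSPTLC2 replicate 2 (0.062 to 0.11), and that of ITGA10 also without shCON replicate 1 (0.081) and with DESeq2 (0.058).

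The degradation list had 13 of 16 members tested, with 3 higher and 6 lower and a median log2 fold change of -0.74. MMP14, the membrane-bound collagenase that also activates MMP2, had 611 and 694 CPM in shSPTLC2, against 1059 and 1114 CPM in shCON (log2 fold change -0.74 ± 0.11, adjusted p = 0.00056). MMP2, a gelatinase, had 3.47 and 3.32 CPM in shSPTLC2, against 8.23 and 8.37 CPM in shCON (log2 fold change -1.29 ± 0.23, adjusted p = 0.0015). FAP, a surface protease that cleaves denatured collagen and is also in the fibroblast list above, fell by 0.86 in log2. In the other direction went MMP15, another membrane-bound metalloproteinase, with 0.83, the inhibitor TIMP2 with 0.43 and the cysteine protease CTSK with 0.84, and the abundant CTSB did not pass (0.14). Among the called genes named here, MMP14, MMP15, FAP, TIMP2 and CTSK were no longer called without shSPTLC2 replicate 1. Their log2 fold changes were then -0.65, 0.76, -0.82, 0.49 and 0.64. Without shSPTLC2 replicate 2, FAP, TIMP2 and CTSK were not called, at -0.90, 0.38 and 1.01. Further called genes of the list, not named here, also lost their calls in each of these fits. CTSK was not called without shCON replicate 2 (log2 fold change 0.59) or with DESeq2 (adjusted p = 0.11).

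Other basement membrane components had 14 of 15 members tested, 2 higher and 1 lower (median -0.12). The abundant LAMB3, a laminin chain, did not pass at a log2 fold change of -0.28. NID2, which links laminin and type IV collagen networks, rose by 1.46 ± 0.25 in log2 (adjusted p = 0.0011) at 8.50 and 13.4 CPM in shSPTLC2, against 3.78 and 4.19 CPM in shCON, and LAMA5 rose by 0.55 ± 0.11 (adjusted p = 0.0034). Leaving out shSPTLC2 replicate 2 took the adjusted p of LAMA5 to 0.099. With the GC-content correction its log2 fold change was 0.25 and not called (adjusted p = 0.16, and 0.20 with the block), and LAMB3 was called lower at -0.39 (adjusted p = 0.035).

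Fibril-associated matrix proteins had 7 of 13 members tested, of which 1 rose and 2 fell (median -0.03). The microfibril genes FBN1 and FBN2 fell by 0.61 (SE 0.12) and 0.53 (SE 0.13) in log2 (adjusted p = 0.0033 and 0.0085), and THBS1, a matricellular protein, rose by 0.52 ± 0.11 (adjusted p = 0.0047). The abundant FN1 and TNC did not pass, with log2 fold changes of 0.18 and -0.03. Without shSPTLC2 replicate 1 none of these 3 calls remained (adjusted p 0.066 to 0.23), and the THBS1 call ended without replicate 2 of that group (0.089).

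TGF-beta signalling, a known inducer of collagen genes, and its matrix targets had 19 of 19 members tested, with 1 higher and 1 lower (median 0.08). The feedback inhibitor SMAD7 had 23.7 and 20.3 CPM in shSPTLC2, against 47.7 and 46.6 CPM in shCON (log2 fold change -1.10 ± 0.13, adjusted p = 7.1e-05). LTBP3, which holds latent TGF-beta in the matrix, had 64.1 and 72.0 CPM in shSPTLC2, against 38.5 and 32.8 CPM in shCON (log2 fold change 0.93 ± 0.13, adjusted p = 0.00021). Both were called in all 13 alternatives. The abundant target CYR61 did not pass, with a log2 fold change of -0.26.

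**Figure D5:**
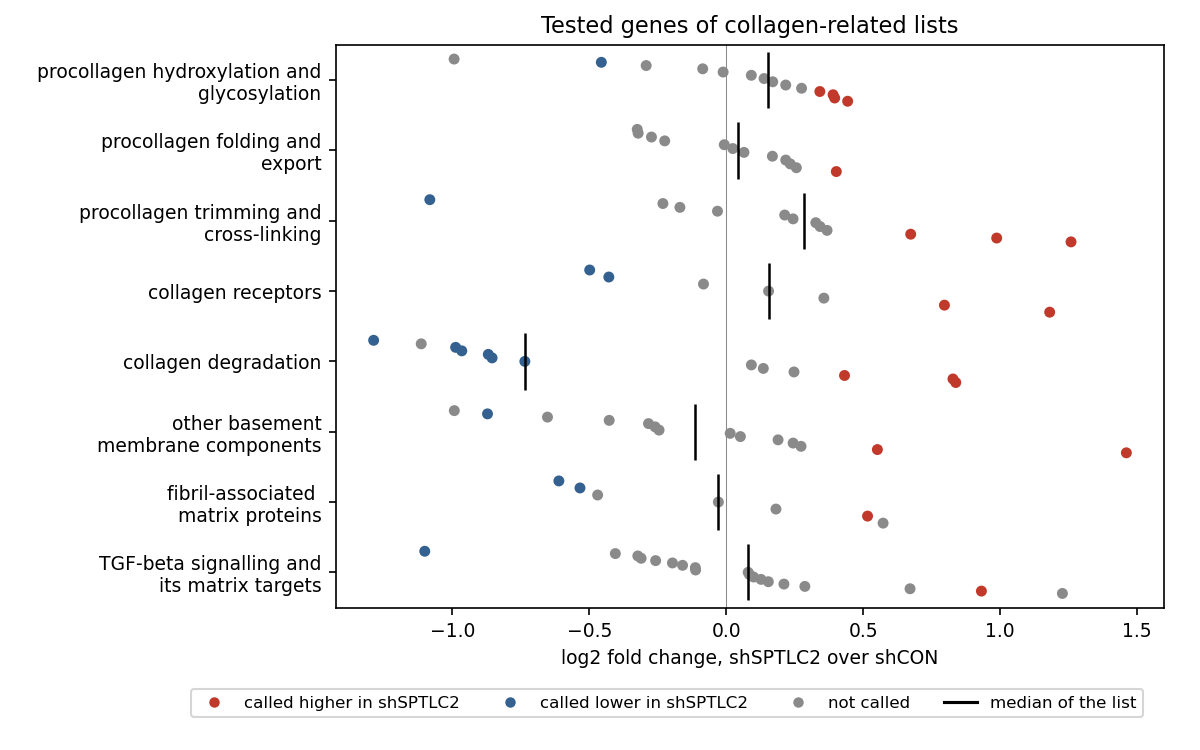
Log2 fold change, shSPTLC2 over shCON, of the tested genes of 8 collagen-related lists, 1 point per gene, coloured by the edgeR call, with a black bar at the median of each list. The degradation list has its median at -0.74, with 6 genes called lower and 3 higher, and the other medians lie between -0.12 and 0.29.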

How the data were processed

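The labels describe RNA-seq of total RNA from Hey-A8 cells, prepared with a NEBNext Ultra kit. The authors deposited raw read counts per Ensembl gene and FPKM values. Each deposited FPKM is the count over gene length over 1 factor per library (relative tolerance 1e-09). HISAT2, StringTie, SAMtools and hg38 are listed without versions per the submitters' processing notes. Which program counted reads, and whether by strand, is not given in the sources used here.

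Counts of all 4 libraries were tested in R 4.3.3 with edgeR 4.0.16: filterByExpr (minimum count 10, minimum total 15), TMM scaling, robust quasi-likelihood fit, two-sided F test, no covariates, and Benjamini-Hochberg adjustment over 15313 genes, with a call at an adjusted p under 0.05. SEs were derived as the size of a log2 fold change divided by √F. The common biological coefficient of variation was 10.1%. DESeq2 1.42.0 was an alternative, and the 13 alternatives are listed in the closing section. The fit was also run on simulated counts in which all genes shared the same spread. That run checks the code and does not measure how reliable the calls reported here are.

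The collagen genes, classes and lists were chosen with earlier results of these data known. Named genes were all tested collagens, SPTLC2, ZDHHC15 and, per list, up to 4 called genes with the smallest adjusted p and the 2 of highest mean CPM. P3H3, TIMP2, CTSK, SLC19A1 and the marker genes singled out were outside this rule and chosen after their values were seen. A few list genes picked by this rule are left out of the text.

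All 58735 gene IDs, symbols and coordinates matched GENCODE 29, which gave lengths, exons and GC content (15308 tested genes). Promoters came from RefSeq (GRCh38.p14). Replicates are as labelled. In a chi-square test per gene within a group, 28.4% (shSPTLC2) and 36.7% (shCON) of genes differed at an unadjusted p under 0.05, so neither pair is 1 library deposited again. The deviations of same-numbered libraries from their group means had a correlation of -0.013 over genes. With 1 such pair of deviations this cannot show whether replicate numbers pair the samples, and the labels do not say.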

Additional observations from a re-analysis of the deposited data

How the results depend on the processing

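The alternatives were RLE size factors, library totals, DESeq2, no filter beyond 1 count, CPM of at least 1 in 2 libraries, a replicate block, a GC-content correction, that correction with the block, leaving out each library, and, added after seeing the data, leaving out mitochondrial genes. The tested collagens gave 285 values, of which 261 kept direction and side of the threshold, 10 lost and 7 gained a call, and 7 turned direction. Collagens called lower numbered 4 with the GC-content correction, all 4 in the other class, against 2 in the fit as reported, and other collagens called higher numbered 1 with DESeq2, with the GC-content correction and with that correction and the block. Leaving out each library gave 413 to 1977 genes higher and 227 to 2050 lower over all genes, 2 to 7 collagens higher and 1 to 3 lower, 1 to 4 fibrillar, 0 to 1 basement membrane and 1 to 2 other collagens higher, 1 to 3 other collagens lower, and 5 to 24 list genes higher and 3 to 22 lower. A group left with 1 library is assumed to vary like the other group. Over all genes there were 640 and 994 calls without shSPTLC2 replicate 1 and 2, against 4027 and 3240 without shCON replicate 1 and 2, and the cause was not tested.

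Direction turned for 7 genes, and none of the turned values was called. With the GC-content correction COL4A2 had a log2 fold change of -0.074 (-0.078 with the block) and COL6A2 of -0.24 (-0.24 with the block). With library totals TNC had 0.028. Leaving out each library gave 0.12 to -0.017 for COL6A2, 0.017 to -0.31 for COL5A2, 0.63 to -0.086 for COL24A1, 0.047 to -0.23 for ITGA2, 0.40 to -0.079 for FN1 and 0.19 to -0.23 for TNC. The cause was not tested. Calls over all genes were 53.6% higher as reported, 65.1% with library totals, where the median of all genes was 0.06, and 43.6% with the GC-content correction. DESeq2 called 2149 genes, against 2971. The replicate block gave 3307 calls with 5 collagens higher and 2 lower, and the labels do not say that equal numbers pair libraries. The log2 ratio of summed collagen levels ran from 0.056 to 0.17. At no more than 10 counts in any library, changes in the 22 untested collagens were hard to detect. With no filter beyond 1 count, 39 collagens were tested in edgeR. None of those left out of the main fit was called there, and the lowest adjusted p among them was 0.28, for COL10A1.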
